A study of Mus musculus with 18 samples.

Results

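The glandular kallikrein genes Klk1b11, Klk1b24, Klk1b19-ps, Klk1b14-ps and Klk1b2-ps were described in whole brain, kidney and liver of mice of 2 inbred strains, C57BL/6J and DBA/2J. Their spots were taken by gene symbol from the platform annotation, which named 9 spots for these 5 genes, of 21765 spots with a value and 15095 named genes. The genes themselves were chosen by measured values of these arrays, their ratio between the strains, so the ratios are given as a description. Where the number of these genes or spots past a threshold is given, it stands beside the share over the whole array for scale and supports nothing. A further spot carried the symbols of 2 kallikrein genes at once and was left out.

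Each of the 18 glass arrays compared RNA from a pool of DBA/2J mice with RNA from a pool of C57BL/6J mice, 6 arrays for each of the 3 tissues. The brain and kidney pools held 10 mice and the liver pools 9. The same DBA/2J pool and C57BL/6J pool of a tissue went onto all of its arrays, so these are replicate hybridisations, and their spread says nothing about the spread between mice. DBA/2J RNA carried the same dye on all arrays and no dyes were swapped, so a preference of a spot for one dye cannot be told apart from a difference between the strains. Age, sex and treatment of the mice were not given in the sources used here. Values are log2 ratios, and a negative value is read as a lower level in DBA/2J. That direction is the likely one from the dyes in the labels and the usual order of the channels, but no source used here states it outright.

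Kallikreins are serine proteases made as inactive precursors and released into saliva, urine and other secretions. Tissue kallikrein, the product of Klk1, frees the vasodilator peptide kinin from kininogen and is made in the kidney by the connecting tubule. In the mouse a run of tandem copies of that gene, the Klk1b genes, lies beside it on chromosome 7. The best known products of the family are the subunits and processing enzymes of the nerve growth factor and epidermal growth factor complexes of the submandibular gland, where expression depends on androgen. Klk1b11 and Klk1b24 are protein-coding genes, while the names ending in -ps mark pseudogenes, copies that RefSeq does not credit with a protein. The copies are so alike that a spot for one may also bind RNA of its neighbours, and each spot is therefore reported on its own under the row number of the deposited table.

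The likeness of the copies shows in the bases just before their starts. RefSeq promoters of build GRCm38.p6 were held for 2 of the 5 genes, Klk1b11 and Klk1b24. They are printed beside that of Klk1b16, the measured gene of the same run whose kidney ratio was near 0 after normalisation. The 120 bases before each annotated start are given 5′ to 3′ on the + strand, with the letters TTTAAA in capitals.
Klk1b11, chr7:43995757-43995876: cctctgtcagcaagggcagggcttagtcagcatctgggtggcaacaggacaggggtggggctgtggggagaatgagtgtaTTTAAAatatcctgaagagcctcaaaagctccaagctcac
Klk1b24, chr7:44188116-44188235: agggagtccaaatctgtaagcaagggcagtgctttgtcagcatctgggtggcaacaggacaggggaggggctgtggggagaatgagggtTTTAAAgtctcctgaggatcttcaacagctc
Klk1b16, chr7:44137170-44137289: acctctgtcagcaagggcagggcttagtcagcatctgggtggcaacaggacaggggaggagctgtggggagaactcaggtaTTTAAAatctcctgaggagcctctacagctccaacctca
The capitals begin 40 bases before the start of Klk1b11, 31 before that of Klk1b24 and 39 before that of Klk1b16. TTTAAA, which reads the same on both strands, was found in the 250 bases before the start of 12 of 13 Klk1b genes and of 12.1% of 32851 RefSeq promoters. Over those 250 bases Klk1b11 was 74.2% identical to Klk1b24 and 89.7% identical to Klk1b16, and the 78 pairs of Klk1b genes ranged from 51.9% to 89.7%. The promoter of Klk1b11 was thus closer to that of Klk1b16 than to that of Klk1b24. All these sequences come from the same reference build, and a link between promoter sequence and kidney ratio was not tested. A match of letters is a description of sequence and not evidence of a binding site.

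The deposited log2 ratios were not centred: array medians ran from -1.65 to 0.16, and in kidney the ratio rose with brightness. The ratios were therefore normalised again, by a smooth curve of ratio against brightness (loess) within each print block of the array, before any value below was taken. A spot or gene is said to have passed the threshold where limma's moderated test of the 6 arrays against 0 gave a Benjamini-Hochberg adjusted p under 0.05 over all spots or all 20218 features, a feature being the mean of the spots with the same single symbol. After normalisation the arrays of a tissue correlated with each other by 0.383 on average in brain, 0.616 in kidney and 0.475 in liver.

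In kidney all 9 spots were lower in DBA/2J, by 2.46-fold to 4.02-fold, on all 6 arrays. The 54 kidney values lay between -2.09 and -0.78 on the log2 scale, and the 9 means ranked between the 9th and the 47th lowest of 21765 spots. The median of the 9 means was -1.82, against 0.00 over all spots. These are the values by which the genes were chosen, so that all 9 are past the threshold with a lower ratio, where 19.0% of all spots are, follows from the choice and is no test.

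Klk1b24, which encodes a secreted kallikrein, had the lowest ratio. Its spot 15385 ran from -2.09 through a median of -2.05 to -1.75, with a mean of -2.01 ± 0.13 (SD, n = 6), or 4.02-fold lower in DBA/2J. The value of -1.75 came from array 5 and stood apart from the other 5 arrays, which lay between -2.09 and -2.04.

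Klk1b11, the other protein-coding gene, had 3 spots. Spot 4634 ran from -2.02 through a median of -1.88 to -1.49, with a mean of -1.84 ± 0.19 (SD, n = 6), or 3.59-fold lower. Spot 5196 ran from -1.96 through -1.85 to -1.58, with a mean of -1.82 ± 0.14, or 3.52-fold lower. Spot 21536 ran from -1.94 through -1.75 to -1.67, with a mean of -1.77 ± 0.10, or 3.40-fold lower. The 3 means of Klk1b11 differed by at most 0.08 and their arrays overlapped. Averaged over its spots, Klk1b11 stood at -1.81 ± 0.13 (SD, n = 6), or 3.50-fold lower.

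Of the pseudogenes, Klk1b19-ps had 1 spot, 15674, which ran from -2.07 through a median of -1.86 to -1.61, with a mean of -1.85 ± 0.17 (SD, n = 6), or 3.60-fold lower. Klk1b14-ps had 2 spots that did not overlap in kidney. Spot 12832 ran from -1.96 through -1.93 to -1.78, with a mean of -1.90 ± 0.07, or 3.74-fold lower, the smallest SD of the 9 spots. Spot 1350 ran from -1.75 through -1.42 to -0.78, with a mean of -1.39 ± 0.33, or 2.63-fold lower. The 2 spots of Klk1b14-ps were 0.51 apart, and their average for the gene was -1.65 ± 0.18 (SD, n = 6), or 3.13-fold lower.

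Klk1b2-ps, a pseudogene with 2 spots, had the gene average nearest to 0 of the 5 genes. Its spot 10967 ran from -1.91 through a median of -1.69 to -0.93, with a mean of -1.59 ± 0.34 (SD, n = 6), or 3.02-fold lower. Its spot 22043 ran from -1.52 through -1.32 to -0.95, with a mean of -1.30 ± 0.21, or 2.46-fold lower. The spots of Klk1b2-ps overlapped, and the average for the gene was -1.45 ± 0.27 (SD, n = 6), or 2.73-fold lower. In the kidney order of Klk1b24, Klk1b19-ps, Klk1b11, Klk1b14-ps and Klk1b2-ps, neighbours lay closer than the larger of their SDs.

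**Figure D1:**
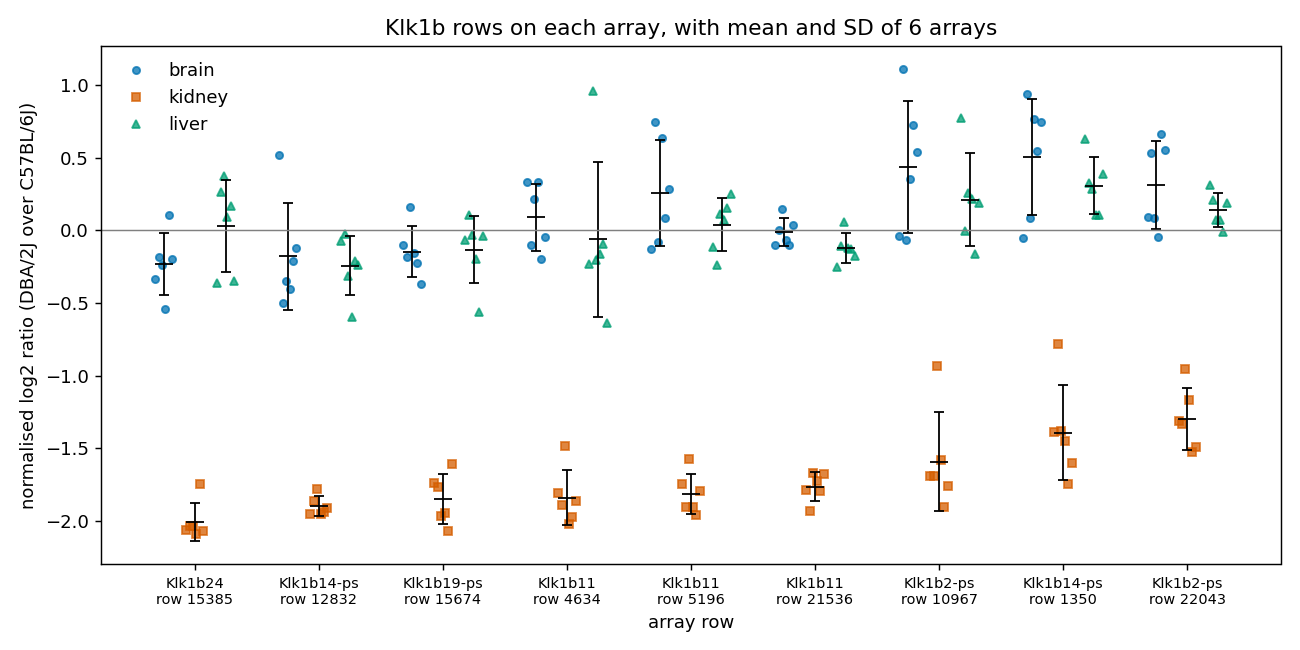
Normalised log2 ratio of DBA/2J over C57BL/6J (vertical axis) of each of the 9 Klk1b spots (horizontal axis, ordered by kidney mean) on every array of brain, kidney and liver, with the mean and SD of 6 arrays in black. All kidney points lie between -2.09 and -0.78, below every brain and liver point of the same spot.

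Array 3 gave the highest kidney value for 6 of the 9 spots, and array 5 the lowest for 5. The spread of the 9 spots over the kidney arrays, with a median SD of 0.17, was close to the median SD of 0.18 over all spots. Before normalisation the order of the arrays was another one: as deposited, array 5 held the highest value of 8 of the 9 spots and array 6 the lowest of 8. Array 5 also had the only deposited median above 0 among the kidney arrays.

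In brain and liver the same spots lay near 0. The spot means ran from -0.23 to 0.50 in brain, around a median of 0.09, and from -0.24 to 0.31 in liver, around a median of 0.03. In brain 2 of the 9 spots passed the threshold, both higher in DBA/2J, as 13.8% of all spots did in either direction. In liver 2 of the 9 passed, 1 in each direction, as 23.2% of all spots did. With 9 spots, these shares do not stand apart from those of all spots.

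For Klk1b24 the brain values ran from -0.54 through a median of -0.22 to 0.11 and the liver values from -0.36 through 0.13 to 0.37, so both tissues held arrays on either side of 0. For Klk1b11 the averages over its spots were 0.11 ± 0.13 (SD, n = 6) in brain and -0.05 ± 0.15 in liver. One liver array, array 2, gave 0.96 for spot 4634 of Klk1b11, where the other 5 lay between -0.64 and -0.09. Klk1b19-ps stood at -0.15 ± 0.18 in brain and -0.13 ± 0.23 in liver.

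The 2 spots of Klk1b14-ps went opposite ways outside the kidney. In liver spot 1350 was higher in DBA/2J on all 6 arrays, from 0.10 through a median of 0.31 to 0.63, with a mean of 0.31 ± 0.20 (SD, n = 6). Spot 12832 was lower on all 6 liver arrays, from -0.60 through -0.22 to -0.03, with a mean of -0.24 ± 0.20. These were the 2 spots that passed the threshold in liver, and their mean for the gene was 0.03 ± 0.18. In brain spot 1350 stood at 0.50 ± 0.40 and passed the threshold, while spot 12832 stood at -0.18 ± 0.37 and did not. A gene average of Klk1b14-ps in brain or liver therefore hid 2 spots that disagreed.

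Klk1b2-ps leaned to the other side than in kidney. Its brain average was 0.38 ± 0.36 (SD, n = 6), above 0 on all 6 arrays but only at 0.03 on array 1 and 0.01 on array 3. Klk1b2-ps was the only one of the 5 genes past the threshold in brain, where 13.6% of all features passed. Spot 10967, which passed, ran from -0.06 through a median of 0.45 to 1.11 in brain, and spot 22043 from -0.04 through 0.31 to 0.66. In liver the average of Klk1b2-ps was 0.18 ± 0.21, and none of the 5 genes passed there, against 22.9% of features. Within brain, the order from lowest to highest was Klk1b24, Klk1b19-ps, Klk1b11, Klk1b14-ps and Klk1b2-ps. Neighbours in that order lay closer than the larger of their SDs, except Klk1b19-ps and Klk1b11.

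The ratio of every spot was lower in kidney than in brain and liver without overlap: for all 9, each kidney array lay below each brain and liver array. This held for 1.36% of all spots, and for the 9 it follows largely from their choice. The kidney ratio minus the liver ratio was -2.04 (standard error, SE, 0.13, n = 6 arrays per tissue) for Klk1b24, -1.76 (SE 0.094) for Klk1b11, -1.72 (SE 0.11) for Klk1b19-ps, -1.68 (SE 0.11) for Klk1b14-ps and -1.62 (SE 0.15) for Klk1b2-ps. The kidney ratio minus the brain ratio was -1.78, -1.92, -1.70, -1.81 and -1.82 for the same genes in that order, with the same SEs. Both differences are built from the kidney ratios by which the genes were chosen and share the kidney arrays. That all 5 genes are past the threshold with a lower ratio in both is therefore no test. For scale, 6.79% of features were for kidney minus liver and 10.8% for kidney minus brain, and 15.9% and 20.4% in either direction.

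The spots were also much brighter in kidney. The brightness of a spot, fitted from the arrays of a tissue over both channels, placed the 9 spots between the 95.2th and the 98.1th percentile of all spots in kidney, with a median at 96.8. In brain their median percentile was 36.7 and in liver 50.6. The spots of Klk1b11 were below the median brightness in both of these tissues, between 17.4 and 49.8. Klk1b19-ps was the exception, bright in all 3 tissues at 89.1 in brain, 96.6 in kidney and 92.4 in liver, yet its mean ratio was below -1 in kidney alone. Brightness belongs to the spot and its sequence as well as to the RNA, so it orders tissues for 1 spot and not genes among themselves.

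**Figure D2:**
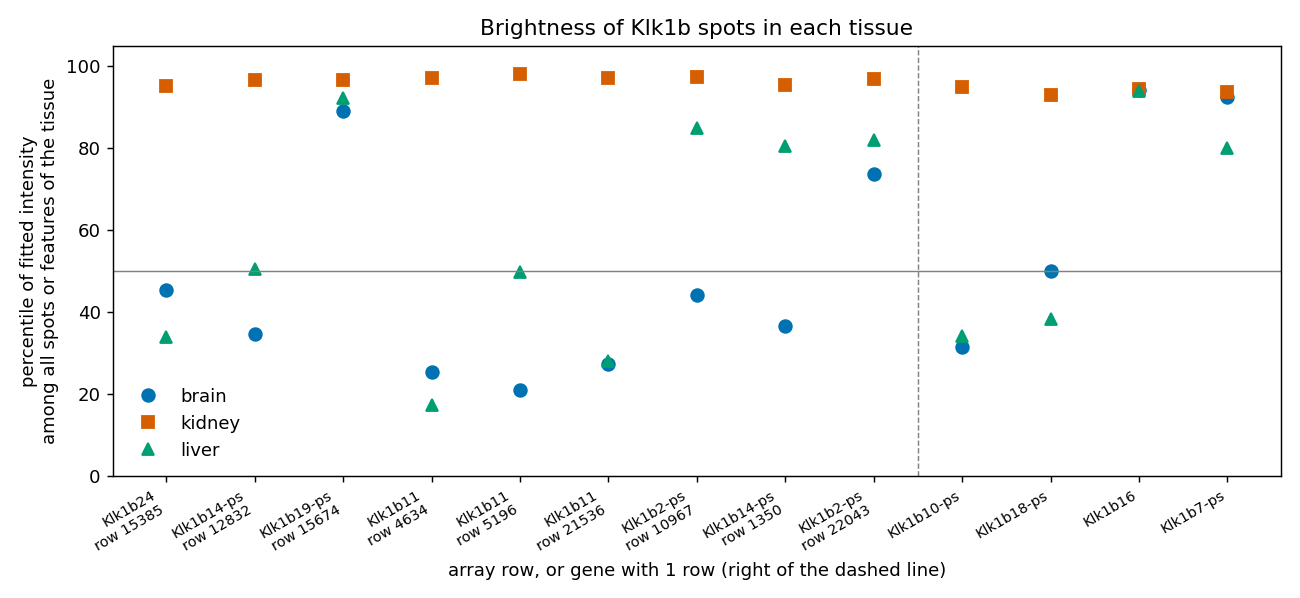
Percentile of fitted intensity among all spots (left of the dashed line) or features (right of it) of the tissue, for the 9 Klk1b spots and 4 further Klk1b genes with 1 spot each. The 9 spots lie between 95.2 and 98.1 in kidney, while in brain and liver most lie lower and Klk1b19-ps stays at 89.1 and 92.4.

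Genes that mark other tissues were read beside these values, because the submandibular gland expresses kallikreins strongly and a dissected kidney may carry neighbouring tissue. Of 15 salivary gland markers 11 were on the array. In kidney their percentiles of brightness ran from 3.27 to 70.3, with 8 of the 11 below the median brightness, and their ratios from -0.45 to 0.22. Of the 11, 6 passed the threshold lower in DBA/2J and 1 higher, beside 18.8% and 19.1% over all features. Their median was -0.26, the direction of the Klk1b spots. The 8 measured adrenal markers had ratios from -0.44 to 0.74 in kidney, the 6 pancreas markers from -0.17 to 0.42, the 4 fat markers from -0.15 to 0.39 and the 6 lymphoid markers from -0.55 to 0.12. The part of these tissues in the Klk1b ratios was not tested. The labelled tissues were bright in their own markers, with the 6 liver markers between percentiles 98.6 and 99.96 in liver, the 5 brain markers between 78.3 and 98.8 in brain, and the 5 kidney markers between 40.1 and 100 in kidney, with a median of 95.4. Of the 5 kidney markers 2 passed lower in kidney, beside 18.8% of all features, and the lowest stood at -1.14. In whole organs fewer cells of a type and less RNA per cell cannot be told apart.

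The size of the kidney difference depended on the correction for brightness. With the arrays only centred on their medians, the 9 spot means lay between -1.19 and -0.64, all still below 0. The gene means were then -1.19 for Klk1b24, -0.99 for Klk1b11, -0.96 for Klk1b19-ps, -0.86 for Klk1b14-ps and -0.64 for Klk1b2-ps. In kidney the deposited ratio and the intensity correlated across spots by 0.618 to 0.719 on the 6 arrays, so bright spots lay above the median of their array before the correction. That correlation ran from -0.001 to 0.600 on the brain arrays and from -0.154 to 0.324 on the liver arrays. In brain and liver the means moved by less, for a reason that was not tested. Klk1b19-ps, bright in these tissues too, stood at -0.02 in brain and -0.14 in liver without loess, against -0.15 and -0.13 with it. The kidney mean stayed below 0 under all 62 combinations of gene and alternative processing, from -2.06 to -0.64. Most of these could not have changed the sign. As all 54 kidney values were below 0, leaving out or scaling arrays, taking single spots or dropping dim features keeps a mean negative. Only the changes of the loess or its intensities could have turned it.

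**Figure D3:**
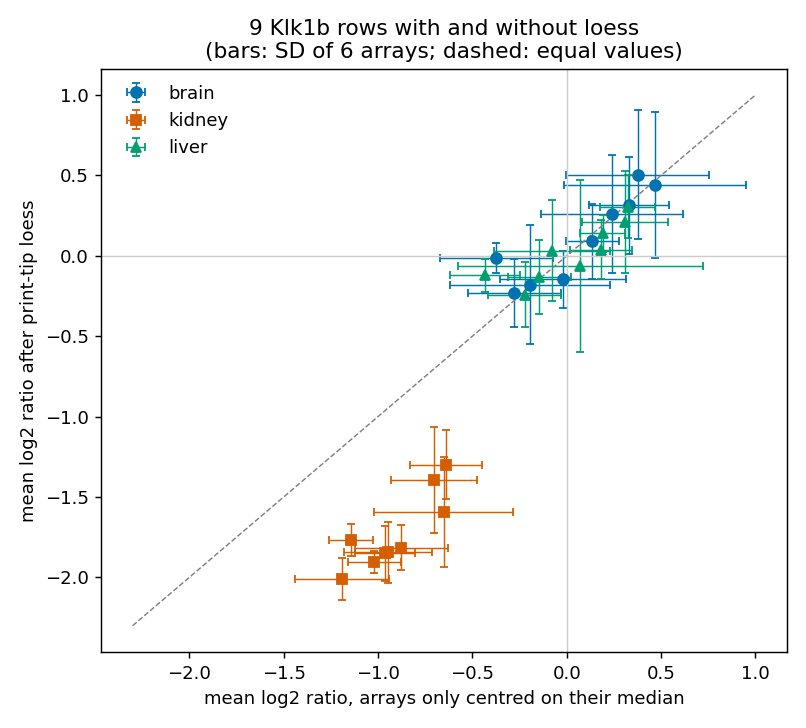
Mean log2 ratio of the 9 Klk1b spots in each tissue after print-tip loess (vertical axis) against the mean with arrays only centred on their median (horizontal axis), with SDs of 6 arrays as bars and a dashed line of equal values. All 9 kidney points lie below the dashed line, between -2.01 and -1.30 with loess and between -1.19 and -0.64 without it.

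RefSeq places 37 kallikrein genes in the locus, and 19 of them had a spot of their own, the 5 described here and 14 others. Most of the low kidney ratios lay in 1 stretch of the locus. From Klk1b2-ps to Klk1b24 lie 18 genes, of which 8 were measured, and 7 of these 8 had a kidney mean below -1. Among the 11 measured kallikrein genes outside that stretch none did, and their means ran from -0.52 to 0.64. That count leaves out a spot named 1700127D06Rik, which RefSeq lists as a synonym of Klk1b7-ps, a gene outside the stretch. Its kidney mean was -1.21. Of all 20218 features 87 had a kidney mean below -1. The split was not as clean with the arrays only centred on their medians, where 2 of the 8 inside (Klk1b24 at -1.19 and Klk1b18-ps just past the mark) and 1 of the 11 outside (Klk7 at -1.14) were below -1. The other low genes inside then lay between -0.99 for Klk1b11 and -0.64 for Klk1b2-ps, and Klk6 outside at -0.98. The ends of the stretch were set by its own members, so the counts are a description. As a spot may also bind RNA of neighbouring copies, the 7 low means need not be separate measurements.

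Besides the 5 genes, Klk1b10-ps and Klk1b18-ps were the measured pseudogenes inside the stretch with a low ratio. Klk1b10-ps ran from -2.39 to -1.22 in kidney with a mean of -1.70 ± 0.44 (SD, n = 6), or 3.25-fold lower in DBA/2J (limma, adjusted p = 6.5e-07). Klk1b18-ps ran from -1.90 to -1.19 with a mean of -1.62 ± 0.24, or 3.07-fold lower (limma, adjusted p = 3.01e-08). In brain and liver both stood between -0.06 and 0.02 and did not pass the threshold. Klk1b10-ps differed between kidney and liver by -1.64 (SE 0.15, limma, adjusted p = 6.48e-08) and Klk1b18-ps by -1.64 (SE 0.11, limma, adjusted p = 3.33e-10).

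Klk1b16, a protein-coding gene between Klk1b14-ps and Klk1b24, was the exception in the stretch. Its kidney values ran from -0.26 to 0.40 with a mean of 0.00 ± 0.25 (SD, n = 6), 3 arrays on either side of 0 (limma, adjusted p = 0.982). With the arrays only centred on their medians it was higher in DBA/2J, at 0.60, and passed the threshold. Its spot was bright in all 3 tissues, between the 94.0th and 94.5th percentile of features. In brain it stood at -0.14 ± 0.19 and in liver at -0.16 ± 0.25, and neither passed.

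**Figure D4:**
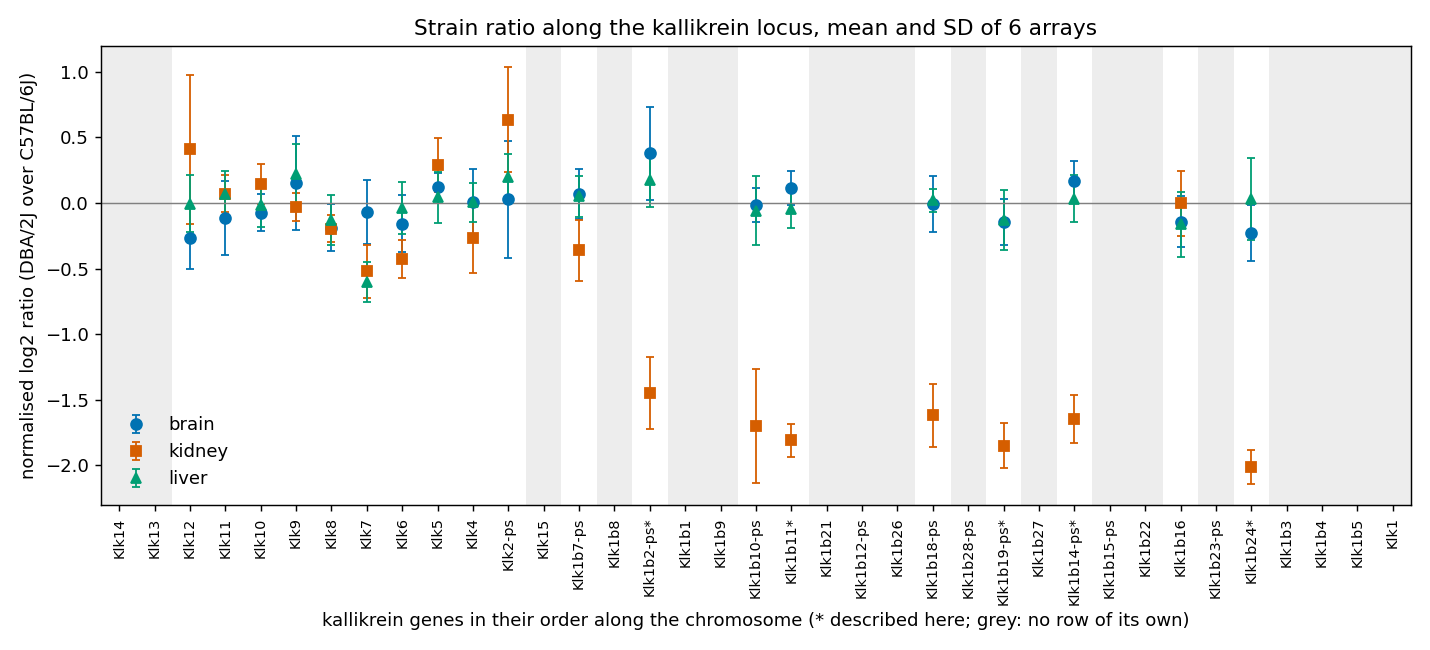
Mean normalised log2 ratio of DBA/2J over C57BL/6J with the SD of 6 arrays (vertical axis) for the kallikrein genes in their order along the chromosome (horizontal axis), with an asterisk at the 5 genes described and grey bands at genes without a spot of their own. After loess, kidney means of 7 of the 8 measured genes from Klk1b2-ps to Klk1b24 lie below -1, Klk1b16 lies at 0.00, and brain and liver means stay between -0.60 and 0.38 over the locus. The spot named 1700127D06Rik is not drawn.

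Of the 14 other kallikrein genes 7 passed the threshold with a lower and 3 with a higher ratio in kidney, where 18.8% of all features passed with a lower and 19.1% with a higher ratio, 37.9% together. Outside the stretch the passing ratios lay between -0.52 and 0.64 after loess, though some of the lower ones were as large as those of the Klk1b genes with the arrays only centred. Klk7, which cleaves the junctions of shed skin cells, stood at -0.52 ± 0.20 in kidney (SD, n = 6; limma, adjusted p = 2.13e-04) and at -0.60 ± 0.15 in liver (limma, adjusted p = 1.87e-04), the only one of the 14 past the threshold in liver. With the arrays only centred, with 1 loess per array or with unrestored intensities, its liver value was between -0.27 and -0.22 and did not pass. Klk6, a protease of brain myelin-forming cells, stood at -0.43 ± 0.15 in kidney (limma, adjusted p = 4.14e-04). With the arrays only centred, Klk7 stood at -1.14 and Klk6 at -0.98 in kidney, both past the threshold. Both spots were dim there, at percentiles 20.2 and 10.4.

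Klk1b7-ps, just outside the stretch, stood at -0.36 ± 0.23 in kidney (SD, n = 6; limma, adjusted p = 0.00401), but at 0.18 with the arrays only centred. A second spot may stand for the same pseudogene: RefSeq lists its name, 1700127D06Rik, as a synonym of Klk1b7-ps. That spot, looked up after the values were known, ran from -1.45 to -0.70 in kidney with a mean of -1.21 ± 0.27 (SD, n = 6; limma, adjusted p = 7.4e-07), and stood at -0.28 ± 0.07 in brain and 0.07 ± 0.27 in liver. The 2 spots thus gave kidney means that differed by far more than their SDs.

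Klk2-ps, the pseudogene between Klk4 and Klk15, was higher in DBA/2J in kidney by 0.64 ± 0.40 (SD, n = 6; limma, adjusted p = 9.08e-04), and turned to -0.13 with the arrays only centred. Klk5 was higher by 0.29 ± 0.21 (limma, adjusted p = 0.0113), and turned to -0.43 without loess. Klk12 was higher by 0.41 ± 0.57 (limma, adjusted p = 0.0494) on 4 of 6 arrays, did not pass without array 1, 4, 5 or 6 (0.30 to 0.37) and turned to -0.39 without loess. Klk4 stood at -0.26 ± 0.27 (limma, adjusted p = 0.0302) and did not pass without array 2, 4, 5 or 6 (-0.26 to -0.21). Nor did Klk4 pass without loess (-0.09), with unrestored intensities (-0.14) or with 1 loess per array (-0.11). Klk8, a protease of hippocampal neurons, stood at -0.20 ± 0.10 (limma, adjusted p = 0.0278) and did not pass without array 1, 2, 5 or 6 (-0.20 to -0.18), and stood at -0.74, past the threshold, without loess. Klk9, Klk10 and Klk11 did not pass in kidney, with means from -0.03 to 0.14. Without loess all of them did, Klk9 at 0.55, Klk10 at 0.40 and Klk11 at -0.59, and Klk10 also passed with unrestored intensities, at 0.24. In brain none of the 14 passed the limma threshold.

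RefSeq places 53 other genes with a measured feature within 1000 kb of the outermost of the 5 genes. In kidney 8 of them were higher and 10 lower in DBA/2J past the threshold, 35 did not pass, beside 19.1% higher and 18.8% lower over all features, and their median was 0.05, against 0.00 over all features. Without loess 33 of them passed in place of 18. None was below -1 with print-tip loess. The lowest was Il4i1, a secreted amino acid oxidase, at -0.94 ± 0.13 (SD, n = 6; limma, adjusted p = 5.66e-07), which was lower in brain and liver too, at -0.50 and -0.42, and reached -1.36 in kidney with the arrays only centred and -1.07 with 1 loess per array. The highest was Irf3, a transcription factor of the interferon response, at 0.70 ± 0.21 (limma, adjusted p = 2.44e-05), though at 0.09 with the arrays only centred. Ap2a1, an adaptor of clathrin-coated vesicles, stood at -0.63 and Fcgrt, the neonatal Fc receptor, at -0.55. Ceacam18 stood at 0.34 and 5430431A17Rik at 0.51. Without loess or with unrestored intensities Fcgrt (-0.18 and -0.29) and Ceacam18 (0.07 and 0.18) did not pass.

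The kinin system, on which tissue kallikrein acts, did not move one way in kidney. Of 17 listed genes 13 were measured, of which 4 passed the threshold higher, 4 lower and 5 not, with a median of 0.04, beside 19.1% higher and 18.8% lower over all features. Bdkrb2, the receptor that kinins act on in healthy tissue, was lower in DBA/2J by 1.60-fold, at -0.68 ± 0.26 (SD, n = 6; limma, adjusted p = 7.46e-05), and stood at -0.34 in brain and -0.38 in liver, past the threshold in both, though not in brain without array 2 (-0.31) or 3 (-0.33). The peptidases that degrade kinins included Dpp4 at -0.51 ± 0.23 and Cpn1 at -0.44 ± 0.36, both past the threshold. Dpp4 did not pass without loess (-0.20) or with unrestored intensities (-0.28), nor Cpn1 with 1 loess per array (-0.26). In liver Cpn1 was higher at 0.52 ± 0.14. Kng1, the kininogen from which kinins are cut, was higher in kidney at 0.37 ± 0.18 (limma, adjusted p = 0.00169) and stood at -0.06 in liver, where its spot was at the 98.9th percentile of brightness.

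Among growth factors that kallikreins bind or process, renins, serpins and processing proteases, 14 of 21 listed genes were measured, and 3 passed higher and 9 lower in kidney, beside 19.1% and 18.8% over all features, with a median of -0.25. With unrestored intensities or with 1 loess per array 8 passed in place of 12. The 4 largest ratios of the main fit were of copies of alpha-1-antitrypsin, a serpin that inhibits serine proteases of neutrophils. Such copies were counted as separate genes, and the list was chosen with earlier results known, so its counts are a description. Serpina1a stood at -1.72 ± 0.33 (SD, n = 6; limma, adjusted p = 8.99e-08), or 3.30-fold lower, Serpina1b at -1.65 ± 0.15, Serpina1e at -1.53 ± 0.25 and Serpina1d at -1.48 ± 0.52. In liver, the main source of the protein, their spots were above the 99.8th percentile of brightness and their means ran from 0.19 to 0.51, none past the threshold. Without loess Serpina1a (0.74), Serpina1b (0.70) and Serpina1d (0.54) were higher past the threshold in liver, with 1 loess per array Serpina1a (0.60) and Serpina1d (0.40), and without liver array 5 Serpina1e (0.65) and Serpina1d (0.27).

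Of 12 distal nephron genes 10 were measured, and 7 passed lower and 1 higher in kidney, beside 18.8% and 19.1% over all features, with a median of -0.32. With unrestored intensities 4 passed in place of 8. Kcnj1, the potassium channel of the thick ascending limb and collecting duct, stood at -0.78 ± 0.23 (SD, n = 6; limma, adjusted p = 1.42e-05), or 1.72-fold lower, and at -0.55 in liver. The subunits of the epithelial sodium channel stood at -0.59 ± 0.18 for Scnn1a, -0.54 ± 0.16 for Scnn1b and -0.43 ± 0.21 for Scnn1g. Scnn1a was at 0.15 and Scnn1g at -0.04 with the arrays only centred, and neither passed then. After loess all 10 measured distal nephron genes had kidney ratios nearer to 0 than any of the 9 spots described, from -0.78 to 0.32. That did not hold with the arrays only centred, where Scnn1b stood at -0.656 and spots 10967 and 22043 of Klk1b2-ps at -0.650 and -0.638.

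Genes that answer to androgen in mouse kidney went both ways. Of 14 listed, 11 were measured, with 4 higher, 3 lower and 4 not past the threshold, and a median of -0.08, beside 19.1% higher and 18.8% lower over all features. Without loess all 11 passed. Cyp4a12a, a fatty acid hydroxylase that is higher in males, was 3.64-fold higher in DBA/2J, at 1.86 ± 0.73 (SD, n = 6; limma, adjusted p = 1.15e-05), though 1 array stood at 0.39. Cyp2e1 was higher at 0.88 ± 0.15 and Slco1a1, an organic anion transporter, at 0.36 ± 0.12, and without loess these stood at 1.82 and 1.23. Acsm3, a medium-chain acyl-CoA synthetase, was lower at -1.32 ± 0.20 (limma, adjusted p = 8.99e-08), or 2.50-fold, and stood at -0.56 without loess.

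The features whose ratios over the 18 arrays were closest to the mean of the 9 Klk1b spots, by root mean square difference among genes outside the kallikrein family, had their lowest ratio in kidney. That follows from the way they were picked. The closest was Gsta2, a glutathione transferase, with a root mean square difference of 0.262 and Pearson's r of 0.980 over 18 arrays, at -1.51 ± 0.22 (SD, n = 6) in kidney, -0.19 in brain and -0.15 in liver. Serpina1a followed at 0.340, Serpina1d at 0.342 and Serpina1f at 0.357. Cd14, a receptor for bacterial lipopolysaccharide, was at 0.404, with a kidney mean of -1.25 ± 0.42. Izumo1r at 0.412, 6330411E07Rik at 0.417 and Acsm3 at 0.418 made up the 8. The 18 points of each r fall into 2 levels, kidney and the rest, so r mostly restates that gap. Among the 8, kidney means after loess ran from -1.72 for Serpina1a to -1.18 for Serpina1f, all nearer to 0 than the mean of Klk1b11, Klk1b19-ps or Klk1b24. Serpina1a was however lower than Klk1b14-ps (-1.65) and Klk1b2-ps (-1.45). Gsta2 (-1.51) and Serpina1d (-1.48) were lower than Klk1b2-ps as well. With the arrays only centred on their medians, Serpina1a stood at -1.01, lower than Klk1b11 (-0.99) and Klk1b19-ps (-0.96) too.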

How the data were processed

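Strain ratios were measured on 18 two-colour arrays of 23040 spots. The authors used Spot for image analysis and print-tip lowess in limma, per the labels, with no version, background correction or build stated there. The deposited log2 ratios were, however, 100.0% log2 of a ratio of 2 whole numbers (tolerance 1e-12), with medians off 0, and were treated as raw. The 1275 spots at 0 on every array were left out. Whole-number pairs (up to 65535) gave each spot's intensity per tissue, with the common factor summed over and an assumed SD of 0.4. Ratios were normalised by print-tip loess (span 0.3, 4 iterations, 48 blocks of 480 spots taken in row order). Symbols came from the platform annotation, updated through RefSeq (GRCm38.p6) by Entrez identifier for 15964 spots. Tests used limma 3.58.1 in R 4.3.3 (lmFit and eBayes) on the 6 arrays of a tissue, or all 18 for differences between tissues. The steps were tested on simulated data, which led to a new estimate of the intensity; with it the changed features were recovered, but errors in the recovered intensity still let some unchanged features pass with small ratios, more than the adjusted p allows for. No source says that the arrays are separate labellings, so p-values measure only their spread, which may be technical.

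The genes and gene lists were chosen with earlier results of these data known. Genes named were all 5 members, every other measured kallikrein, up to 4 passing genes per list and 6 neighbours by size, and the 8 closest features. Alternatives left out the loess, the factor or the blocks, scaled arrays, dropped the dimmest 25% of features, changed the moderation, or left out each array. The array numbers were not used to pair the arrays in the main fits. Deviations of same-numbered arrays of different tissues correlated between -0.23 and 0.16, above 0.1 in 2 of 18 pairs. The best match of an array in another tissue had the same number in 12 of 36 cases, so a weak pairing was not excluded. Probe sequences and proteins were not used here.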

Additional observations from a re-analysis of the deposited data

Results flagged for a closer look

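Single arrays stood apart from the other 5 of their tissue by Dixon's criterion in 6 of 69 groups looked at, where about 1 in 20 is flagged by chance. They were Klk1b11 spot 4634 in liver (array 2, 0.96), Klk1b2-ps spot 10967 in kidney (array 3, -0.93), Klk1b14-ps spot 12832 in brain (array 1, 0.52), Klk1b24 spot 15385 in kidney (array 5, -1.75), Klk1b7-ps in brain (array 6, 0.43) and Klk1b10-ps in liver (array 2, 0.46).

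The kidney ratio differed from another tissue's for some kallikreins beyond the 5 genes (limma, adjusted p under 0.05). Klk1b18-ps differed by -1.64 from liver and -1.61 from brain, Klk1b10-ps by -1.64 and -1.69, and Klk1b7-ps by -0.41 and -0.43. Klk7 differed by -0.45 from brain and Klk6 by -0.39 from liver. Klk2-ps differed by 0.61 and Klk12 by 0.68 from brain. Spot 1350 of Klk1b14-ps was above 0 on all liver arrays, with a mean of 0.31, and below 0 on all kidney arrays; that difference was not tested.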

How the results depend on the processing

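Each choice below was changed alone. The 5 kidney means stayed negative throughout, though only the changes of the loess or its intensities could have turned their sign. Without loess they moved to -1.19 (Klk1b24), -0.99 (Klk1b11), -0.96 (Klk1b19-ps), -0.86 (Klk1b14-ps) and -0.64 (Klk1b2-ps), and with unrestored intensities to -1.56 (Klk1b24) and -1.60 (Klk1b11). Taken alone, spots 1350 and 12832 of Klk1b14-ps gave -1.39 and -1.90. Leaving out an array kept Klk1b24 between -2.06 and -1.99, Klk1b11 between -1.85 and -1.79, Klk1b19-ps between -1.90 and -1.81, Klk1b14-ps between -1.71 and -1.61 and Klk1b2-ps between -1.55 and -1.39.

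Without loess the features past the threshold rose from 7669 to 13113 in kidney, from 3212 to 9288 for kidney minus liver and from 4121 to 7113 for kidney minus brain, kidney spots from 8295 to 14158, kidney neighbours of the locus from 18 to 33, and androgen responsive genes from 7 to 11. Unrestored intensities lowered distal nephron genes from 8 to 4. Of the 14 other kallikreins 10 passed in kidney, 6 with 1 loess per array and 4 without the dimmest features. In liver 1 passed, 2 without loess or with 1 loess per array and 0 with unrestored intensities or without the dimmest features. In brain 0 passed with limma, and 1 without loess, with unrestored intensities, with 1 loess per array or without array 1. Leaving out an array gave 0 to 1 in brain and 1 to 3 in liver, and moved features in brain from 2752 to between 1280 and 3333 and in liver from 4629 to between 2998 and 4618, spots in brain from 3006 to between 1433 and 3646 and in liver from 5043 to between 3286 and 5048. The lowest counts came without brain array 4 and liver array 3. A moderation with intensity trend changed the brain split from 1488 higher and 1264 lower to 782 and 1116. With the array number as a replicate block 2993 features passed for kidney minus liver and 3862 for kidney minus brain. The cause of these changes was not tested, and no depth beyond signal over 6 arrays is known.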
